A study of Homo sapiens with 6 samples.

Results

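Homologous recombination repairs a broken chromosome by copying the intact sister, and the Fanconi anemia pathway hands cross-linked DNA to the same machinery. Of the 58735 genes in the count table, the 38 described here were chosen by gene symbol as parts of these pathways. They comprised 10 genes of damage sensing and checkpoint signalling, 3 of end resection, 5 of the BRCA1 and BRCA2 group, 9 of strand exchange, 8 of the Fanconi core complex, and UBE2T with FANCD2 and FANCI. All 38 passed the filter on low counts, so none was left out of the test over 15341 genes.

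RNA came from UE7T-9, a human bone marrow mesenchymal stem cell line, grown in Dulbecco's modified Eagle's medium. The control group was 3 libraries labelled WT, and the other 3 libraries came from UE7T-9 SRRM4 KO, a line made with a lentiviral CRISPR vector against SRRM4, a splicing factor of microexons. The KO line was expanded from single-cell dilution, so any difference between the groups is also a difference between 1 clone and its parental culture, and the study describes its loss of SRRM4 as incomplete. Whether the control cells received an empty vector is not given in the sources used here. SRRM4 had 0 counts in all 6 libraries, so the counts did not check the labels. The labels do not say whether replicates were separate cultures, and p-values measure only the spread between these libraries, which may be technical.

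The libraries held between 21496117 and 23868323 counts, and 3 counts in a library correspond to 0.123 to 0.139 CPM, the counts scaled to the size of each library. Control replicate 1 stood apart, with 22403 genes detected against 20127 to 20674 in the other 5 libraries. Its counts differed from each of the other controls by a chi-square per degree of freedom of 23.0 and 23.4, against 5.59 between control replicates 2 and 3. Of the mesenchymal markers, THY1, PDGFRB, COL1A1 and ENG fell and CD44, NT5E and VIM rose in the KO libraries, all 7 past the test. Of the markers of other cell types, PTPRC, EPCAM, PECAM1 and CDH5 had at most 3 counts in any library. ITGAM, a myeloid marker, had counts of 5, 14 and 13 in control and was at 0 in each KO library, whereas CD14, KRT18, CD34, the epithelial marker CDH1 (9 to 39 counts) and the endothelial marker VWF (18 to 46 counts) were detected in every library. The 5 markers of other cell types with enough counts for the test did not pass it, and the summed level of that list was 107 ± 7.26 CPM in control and 110 ± 2.23 in KO (SD, n = 3).

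When a break forms, the MRE11, RAD50 and NBN complex and the kinases ATM and ATR sense it, and CHEK1 and CHEK2 pass the signal to the cell cycle. Nucleases then expose single strands, BRCA1, PALB2 and BRCA2 prepare them for strand exchange, and the XRCC2 and XRCC3 complexes and RAD54 proteins help them to invade the sister. The Fanconi core complex works with the E2 enzyme UBE2T to ubiquitinate FANCD2 and FANCI at stalled forks. Many of these genes are transcribed as cells pass from G1 into S phase, and a sister chromatid is present only once DNA has been copied. In bulk RNA, a larger share of cells in S and G2 and more RNA per cell cannot be told apart.

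The pathways were higher in the SRRM4 KO libraries. By edgeR's quasi-likelihood test, 24 of 38 genes rose (63.2%, against 20.7% of all genes tested) and 1, RAD50, fell (2.63%, against 20.9%). The other 13 did not pass the test. A log2 fold change beyond 1 was reached by 11 of the 38, all of them rises, against 12.6% of all genes in either direction. The median log2 fold change over the 38 genes was 0.62, with quartiles of 0.24 and 1.05, while the median of all genes was -0.01 with quartiles of -0.37 and 0.33. Summed over the 38, the level went from 984 ± 73.3 CPM in control to 1537 ± 36.1 CPM in KO (SD, n = 3), 1.56-fold higher. The control and KO libraries did not overlap for 27 of the 38, against 51.8% of all genes tested. With 3 libraries a group, an exact permutation test of a single value cannot go below p = 0.1, so per-gene calls rest on the model across all genes.

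**Figure D1:**
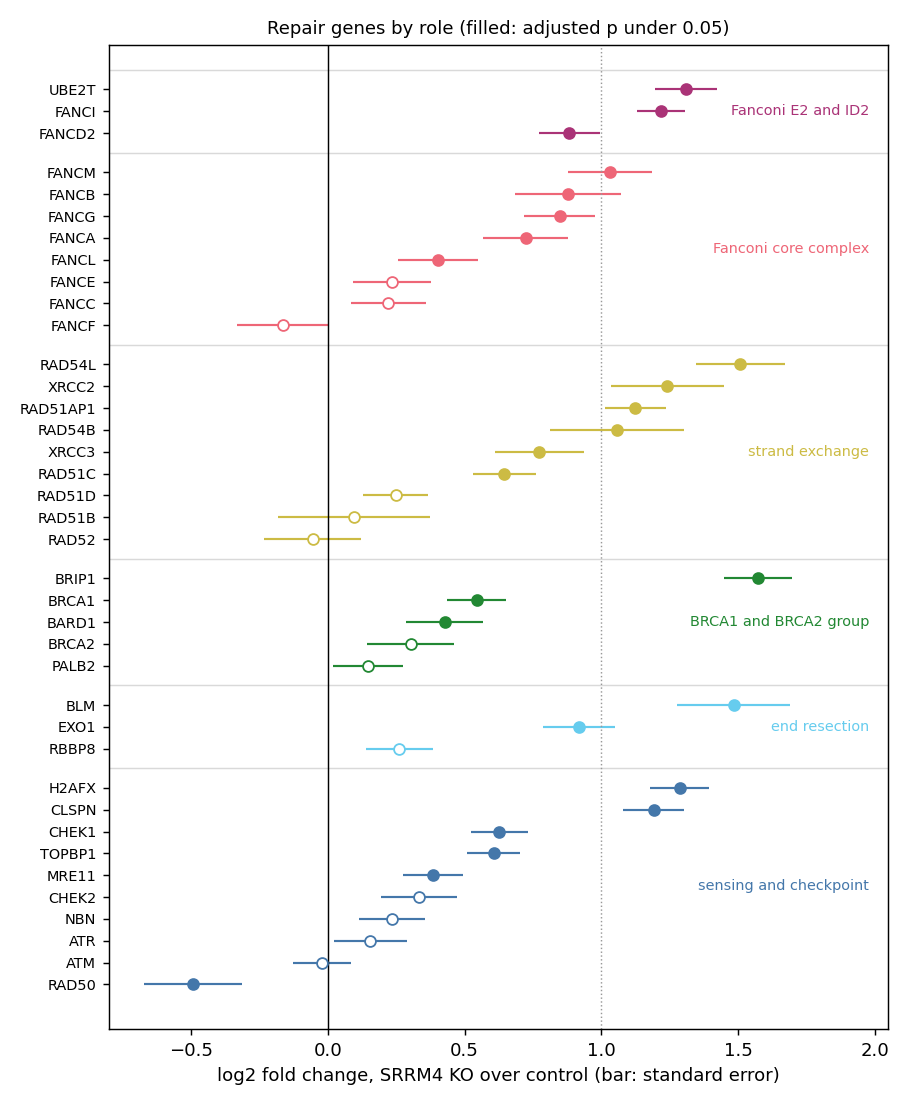
Log2 fold change of each of the 38 repair genes (x axis, SRRM4 KO over control, bars for the standard error), grouped by role on the y axis, with filled points for an adjusted p under 0.05 by edgeR's quasi-likelihood test. The 11 filled points to the right of the dotted line at 1 are spread over all 6 roles, and RAD50 is the 1 filled point below 0.

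RefSeq (GRCh38.p14) windows from 250 bases before to 50 after a transcription start were available for 35 of the 38 genes. FANCI, NBN and RAD54B had none. The words TTTGGCGC, TTTCGCGC, TTTCCCGC and TTTGCCGC, of the kind bound by E2F factors, were searched on both strands, as was CCAAT, the word of NF-Y, which is contained in none of them. An E2F-type word lay in the windows of 7 of the 35 genes, against 6.59% of the 10775 tested genes with a window and 3.99% of all 27305 genes with one. It was found in 6 of the 22 genes that rose (TOPBP1, CLSPN, FANCA, FANCD2, EXO1 and XRCC2) and in 1 of the other 13 (FANCC). CCAAT was present in 17 of the 35 (48.6%, against 43.1% of tested genes), and at least 2 copies in 13 (37.1%, against 16.0%). These matches describe letters in a window and are not measured binding sites, and their part in the rise was not tested. The stretches below come from 5 genes that rose, chosen after their values were seen, with the words in capitals in the direction of transcription, so that ATTGG is CCAAT and GCGGGAAA is TTTCCCGC read from the opposite strand.
CLSPN, chr1:35769959-35770108, minus strand, ending 20 bases into the transcript: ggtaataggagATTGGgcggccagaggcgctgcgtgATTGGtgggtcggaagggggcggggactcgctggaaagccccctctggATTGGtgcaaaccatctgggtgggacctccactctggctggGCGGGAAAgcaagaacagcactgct
BRIP1, chr17:61863529-61863653, minus strand, ending at the last base before the start: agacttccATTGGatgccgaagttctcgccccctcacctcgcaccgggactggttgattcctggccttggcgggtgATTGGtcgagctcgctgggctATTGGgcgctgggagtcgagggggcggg
BLM, chr15:90717196-90717345, plus strand, ending at the last base before the start: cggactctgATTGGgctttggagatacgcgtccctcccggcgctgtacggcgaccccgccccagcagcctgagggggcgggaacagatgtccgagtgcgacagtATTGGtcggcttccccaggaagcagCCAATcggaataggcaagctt
UBE2T, chr1:202341987-202342066, minus strand, ending 50 bases before the start: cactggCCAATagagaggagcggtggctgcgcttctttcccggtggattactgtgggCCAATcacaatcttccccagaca
FANCD2, chr3:10026397-10026442, plus strand, ending 6 bases into the transcript: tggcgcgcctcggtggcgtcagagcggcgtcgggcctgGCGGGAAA
CLSPN carries both kinds of word, BRIP1, BLM and UBE2T carry CCAAT in several copies, and FANCD2 carries the E2F-type word alone.

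Among the sensing and checkpoint genes, the histone variant and the checkpoint adaptor rose most, while the apical kinases stayed close to control. H2AFX, which encodes the H2AX histone phosphorylated around breaks, lies on chromosome 11 (119093854 to 119095467, minus strand). H2AFX had 62.4, 84.2 and 82.5 CPM in the control libraries and 183, 196 and 180 CPM in KO. Every KO library was far above the highest control, and control replicate 1 was the lowest of the 6. Its log2 fold change was 1.29 (SE 0.11, adjusted p = 1.96e-07, here and below from edgeR's quasi-likelihood fit). CLSPN (chromosome 1, 35720218 to 35769967) encodes claspin, the adaptor through which ATR activates CHEK1. CLSPN gave 20.02, 16.6 and 19.1 CPM in control and 42.1, 42.4 and 42.8 CPM in KO. The KO libraries were nearly equal to each other, with an SD of 0.353, and lay clear of control, for a log2 fold change of 1.19 (SE 0.11, edgeR adjusted p = 5.54e-07).

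CHEK1, the kinase downstream of ATR, rose with a log2 fold change of 0.63, and TOPBP1, the activator of ATR, with 0.61. MRE11, the nuclease of the sensor complex, rose with 0.38, a call that did not hold without control replicate 2 or KO replicate 3 (edgeR adjusted p = 0.0627 and 0.0541), nor with the fit centred by chromosome or by neighbours (0.0611 and 0.0769). ATM, ATR, CHEK2 and NBN did not pass, with log2 fold changes of -0.02, 0.16, 0.33 and 0.23. ATM, at 116 ± 18.6 CPM in control and 114 ± 5.62 CPM in KO (SD, n = 3), overlapped between the groups. Without control replicate 1, the highest of the 6 libraries for both ATM and ATR, ATR reached a log2 fold change of 0.35 (edgeR adjusted p = 0.00507) and NBN one of 0.39 (0.000601).

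RAD50, the coiled-coil partner of MRE11 (chromosome 5, 132556019 to 132646344, plus strand), was the 1 gene that fell. RAD50 had 7.66, 11.2 and 9.63 CPM in control and 6.10, 7.06 and 7.04 CPM in KO. The groups were close, with control replicate 1 just above the highest KO library, and the log2 fold change was -0.49 (SE 0.18, edgeR adjusted p = 0.0372). The call was lost without any 1 library other than control replicate 1, with adjusted p from 0.0589 to 0.17, and with DESeq2 (0.0761). Of the 9771 exon bases of RAD50, 79.7% are also exon of AC116366.3 on the same strand, so that its counts come mainly from the 1987 bases that are not shared if reads over both genes were left out. How such reads were counted is not given in the sources used here.

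End resection turns a break into single-stranded DNA. BLM (chromosome 15, 90717327 to 90816165), the helicase mutated in Bloom syndrome, rose from 7.33, 5.89 and 3.58 CPM in control to 14.8, 15.6 and 16.5 CPM in KO. All KO libraries were at least double the highest control, and the controls were more scattered than the KO libraries. The log2 fold change of BLM was 1.48 (SE 0.21, edgeR adjusted p = 3.49e-05). EXO1, an exonuclease of long-range resection, rose with a log2 fold change of 0.92. RBBP8, which encodes CtIP, the cofactor that starts resection, did not pass at 0.26 (edgeR adjusted p = 0.104), and passed at 0.41 without control replicate 1 (0.00121).

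In the BRCA1 and BRCA2 group, 3 of 5 genes rose, from BARD1 to BRIP1, and BRCA2 and PALB2 did not pass. BRIP1 (chromosome 17, 61681266 to 61863521) encodes FANCJ, the helicase that binds BRCA1. BRIP1 had 38.1, 28.6 and 26.5 CPM in control and 91.7, 87.2 and 98.4 CPM in KO, and the lowest KO library was more than double the highest control. Its log2 fold change of 1.57 (SE 0.12, edgeR adjusted p = 9.98e-08) was the largest of the 38 genes over all 6 libraries without centring, while XRCC2 was largest with the fit centred by chromosome (1.496, BRIP1 1.37) or by neighbours (1.59, BRIP1 0.99). BRCA1 (chromosome 17, 43044295 to 43170245) had 27.5, 24.3 and 23.3 CPM in control and 36.3, 36.3 and 37.1 CPM in KO. The KO libraries of BRCA1 lay above every control, by 1.46-fold on average, with a log2 fold change of 0.55 (SE 0.11, edgeR adjusted p = 0.000841).

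BARD1, the partner of BRCA1 in its ubiquitin ligase, rose with a log2 fold change of 0.43 (edgeR adjusted p = 0.0232), although control replicate 1, at 38.3 CPM, reached above KO replicate 1, at 37.8 CPM. The call on BARD1 was lost in 4 of the 6 fits that left out 1 library (without control replicate 2 or 3, or KO replicate 2 or 3). BRCA2 (chromosome 13, 32315474 to 32400266), which acts on resected single strands, had 24.2, 16.9 and 15.6 CPM in control and 25.3, 23.4 and 21.2 CPM in KO. Control replicate 1 lay within the KO range, and the log2 fold change of 0.30 did not pass (SE 0.16, edgeR adjusted p = 0.142). Without control replicate 1, BRCA2 passed at 0.52 (edgeR adjusted p = 0.00229). PALB2 (chromosome 16, 23603160 to 23641310), the bridge between BRCA1 and BRCA2, had 26.4, 22.2 and 28.1 CPM in control and 25.9, 27.0 and 32.1 CPM in KO. The groups overlapped and PALB2 did not pass, with a log2 fold change of 0.15 (SE 0.13, edgeR adjusted p = 0.383).

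**Figure D2:**
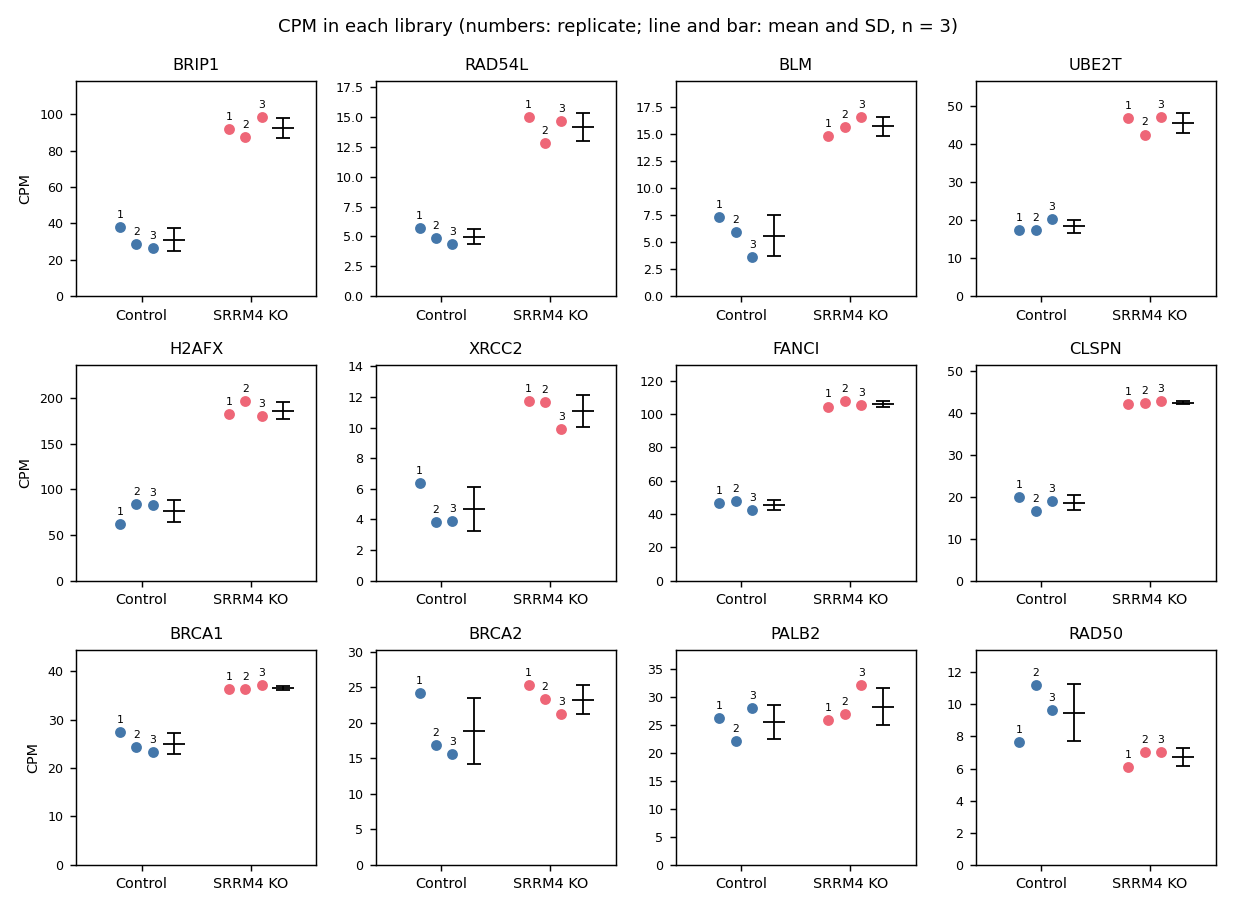
CPM of 12 repair genes (y axis, from 0) in each control and SRRM4 KO library (points, numbered by replicate), with the mean and SD of 3 libraries as line and bar. The 3 KO points lie above the 3 control points for the 8 genes of the upper rows and for BRCA1, the groups overlap for BRCA2 and PALB2, and RAD50 is lower in KO.

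Strand exchange was represented by 9 genes, among them those of the XRCC2 and XRCC3 complexes and the RAD54 family. RAD54L (chromosome 1, 46247688 to 46278473), a motor protein that drives strand invasion, had 5.67, 4.87 and 4.39 CPM in control and 14.99, 12.8 and 14.7 CPM in KO. The groups were far apart, with a log2 fold change of 1.51 (SE 0.16, edgeR adjusted p = 2.76e-06). RAD54L shares 25.1% of its exon bases with LRRC41 on the opposite strand, a gene with a mean of 2629 counts against 216. Its relative RAD54B (chromosome 8, 94371960 to 94475109) was the gene of lowest count among the 38, its counts being 43, 46 and 56 in control and 98, 124 and 95 in KO. RAD54B did not overlap between groups and rose by a log2 fold change of 1.06 (SE 0.24, edgeR adjusted p = 0.00268), but 59.1% of its exon bases are shared with FSBP. RAD51AP1 (chromosome 12, 4538798 to 4560048), a cofactor of strand invasion, had 17.6, 15.2 and 16.5 CPM in control and 36.5, 36.0 and 35.1 CPM in KO. Replicates of RAD51AP1 were tight in both groups, and its level was 2.18-fold higher in KO (log2 fold change SE 0.11, edgeR adjusted p = 1.21e-06).

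XRCC2, XRCC3, RAD51B, RAD51C and RAD51D form complexes with each other, and not all of their genes passed the test. Whether these genes differed from each other was not tested. XRCC2 (chromosome 7, 152644779 to 152676165) had 6.37, 3.80 and 3.90 CPM in control and 11.7, 11.7 and 9.91 CPM in KO. Control replicate 1 was the highest control and still below every KO library, and the log2 fold change was 1.24 (SE 0.21, edgeR adjusted p = 0.000182). XRCC3 rose with 0.77, with 76.7% of its exon bases shared with KLC1 on the opposite strand, and RAD51C rose with 0.65, which became 0.07 and did not pass with the fit centred on its chromosomal neighbours (edgeR adjusted p = 0.678). KLC1 itself had a log2 fold change of 0.13 and did not pass. RAD51D and RAD51B did not pass, at log2 fold changes of 0.25 and 0.10, and neither did RAD52, an annealing protein, at -0.06.

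In the Fanconi core complex, which acts as a ubiquitin ligase at cross-links, 5 of 8 genes rose. FANCM (chromosome 14, 45135940 to 45200890), the translocase that anchors the complex to DNA, had 12.7, 9.0 and 9.68 CPM in control and 22.2, 19.1 and 23.0 CPM in KO. All KO libraries of FANCM exceeded all controls, with a log2 fold change of 1.03 (SE 0.15, edgeR adjusted p = 6.9e-05). FANCB and FANCL, which form the catalytic module with another subunit, rose with 0.88 and 0.40. FANCL lost its call with DESeq2 (adjusted p = 0.0534), with upper-quartile normalization and without any 1 library other than control replicate 1. FANCA and FANCG, which bind each other, rose with 0.72 and 0.85. Bases shared with exons of other genes made up 23.6% of FANCA and 19.7% of FANCL. FANCC, FANCE and FANCF did not pass, at log2 fold changes of 0.22, 0.23 and -0.16. These 3 form a module of their own in the core complex. Whether the modules differed from each other was not tested.

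The E2 enzyme and its targets were the role group with the highest median (1.22), and each of the 3 genes rose. UBE2T (chromosome 1, 202331657 to 202341980), the E2 enzyme of the pathway, had 17.4, 17.3 and 20.3 CPM in control and 47.0, 42.5 and 47.1 CPM in KO. The lowest KO library of UBE2T was more than double the highest control, with a log2 fold change of 1.31 (SE 0.11, edgeR adjusted p = 2.42e-07). FANCI (chromosome 15, 89243949 to 89317261) had 46.4, 47.9 and 42.2 CPM in control and 104, 108 and 106 CPM in KO. The KO libraries of FANCI differed little from each other and lay well above control, with a log2 fold change of 1.22 (SE 0.09, edgeR adjusted p = 4.5e-08). FANCD2, which is clamped on DNA with FANCI, rose from 22.1 ± 1.30 CPM to 40.8 ± 3.62 CPM (SD, n = 3), or by 0.88 on the log2 scale. The summed level of the 3 genes was 86.0 ± 2.52 CPM in control and 192 ± 3.54 CPM in KO, 2.23-fold higher. By sum, the core complex, sensing and resection were each 1.44-fold higher, strand exchange 1.66-fold and the BRCA1 and BRCA2 group 1.69-fold. Sums follow the genes of high level, such as BRIP1 in the last group. By median log2 fold change the order differed, at 0.92 for resection, 0.77 for strand exchange and 0.56 for the core complex. The BRCA1 and BRCA2 group was at 0.43 and sensing at 0.36. Differences between roles were not tested.

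Levels were also set per exon length, so that genes can be compared with each other. H2AFX was highest in both groups, at 47.3 ± 7.53 CPM per kb in control and 115 ± 5.54 CPM per kb in KO (SD, n = 3). In control it was followed by NBN at 14.2, UBE2T at 11.1, TOPBP1 at 11.0 and RBBP8 at 10.6 CPM per kb, and in KO UBE2T stood second at 27.6 CPM per kb. UBE2T, TOPBP1 and RBBP8 did not differ beyond their spread in control. Among the 30 genes with under 10% of exon bases shared, the lowest were RAD51B at 0.675, BLM at 0.840 and XRCC2 at 0.966 CPM per kb in control. BLM and XRCC2 were at 2.35 and 2.29 CPM per kb in KO, and RAD51B was at 0.722. RAD54B and RAD50 came to 0.416 and 0.971 CPM per kb in control over all their exon bases, but most of those bases are shared with another gene, so neither was placed in this order.

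**Figure D3:**
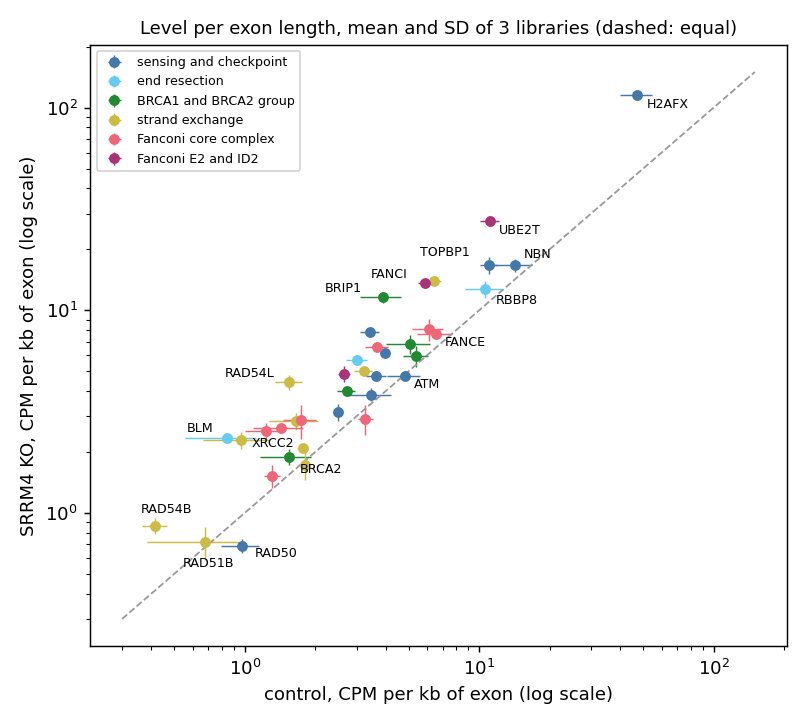
Mean level of each repair gene in control (x axis) and SRRM4 KO (y axis), in CPM per kb of exon on log scales, with SD bars over 3 libraries and colours by role. Most points lie above the dashed line of equal levels, with H2AFX at the top, and RAD50 lies below it. Lengths are those of all exons, including bases shared with other genes, which are most of RAD54B, RAD50 and XRCC3.

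Ratios between genes that work as partners were taken per library and per exon length, for pairs chosen after the values were seen, and are given without a test. BRIP1 over BRCA1 went from 1.42 ± 0.152 in control to 2.91 ± 0.144 in KO (SD, n = 3). FANCI over FANCD2 went from 2.22 ± 0.0532 to 2.81 ± 0.266, and XRCC2 over RAD51D from 0.551 ± 0.185 to 1.09 ± 0.104. CLSPN over CHEK1 went from 0.861 ± 0.0419 to 1.28 ± 0.0551. CHEK1 over ATR went from 1.18 ± 0.188 to 1.603 ± 0.0508, CHEK2 over ATM from 0.520 ± 0.0552 to 0.661 ± 0.0966 and BLM over EXO1 from 0.286 ± 0.122 to 0.411 ± 0.0031. In these 7 of 11 pairs the libraries of the groups did not overlap, and of all single genes tested 51.8% did not overlap. The share over other pairs of genes was not computed, so the count is not particular to partners. The groups did overlap for XRCC3 over RAD51C (0.525 ± 0.166 and 0.566 ± 0.0733), BARD1 over BRCA1 (1.86 ± 0.257 and 1.72 ± 0.163), PALB2 over BRCA2 (3.63 ± 0.947 and 3.19 ± 0.659) and NBN over MRE11 (3.88 ± 0.583 and 3.50 ± 0.0877).

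Other gene lists placed the change in context, with no gene shared between lists. Of 62 further genes of the same pathways, 60 were tested, 25 rose and 6 fell, with a median log2 fold change of 0.29. EME1, a subunit of a structure-selective nuclease, rose most at 1.94, followed by CENPX, the histone-fold partner of FANCM, at 1.88. The helicase MCM8 and the nuclease-helicase DNA2 rose with 1.14 each. BABAM2, a subunit of the BRCA1-A complex, fell with -0.64. In end joining, the repair route that does not need a sister, 2 of 9 tested genes rose (XRCC4 at 0.46 and PRKDC at 0.28), none fell, and the median was 0.13. This share of 22.2% was close to the 20.7% of all genes tested that rose.

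Cell cycle genes moved in the same direction, and whether they moved further than the repair genes was not tested. Of 39 genes of DNA replication, 32 rose and 2 fell, with a median log2 fold change of 0.82. Rises beyond a log2 fold change of 1 were 10 of these 39, against 11 of the 38 repair genes. Of 18 genes of the G1/S transition, 17 rose, with a median of 1.02. The largest rises among them were E2F7, a repressor of E2F targets, at 1.74, E2F1, an activator of S phase genes, at 1.57, and the cyclin genes CCND1 and CCNE2 at 1.498 and 1.44. All 22 genes of G2 and mitosis rose, with a median of 1.35, and BIRC5, which encodes survivin, rose most at 1.97. In summed CPM, the G1/S list was 2.29-fold, the G2/M list 2.48-fold, the replication list 1.64-fold and the end joining list 1.10-fold the control level, beside 1.56-fold for the 38 repair genes. The part of these lists in the rise of the repair genes was not tested. Among 20 p53 targets, 13 rose and 1, SESN2, fell, with a median of 0.35, and CDKN1A, which encodes the cell cycle inhibitor p21, did not pass at -0.01 (edgeR adjusted p = 0.942).

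**Figure D4:**
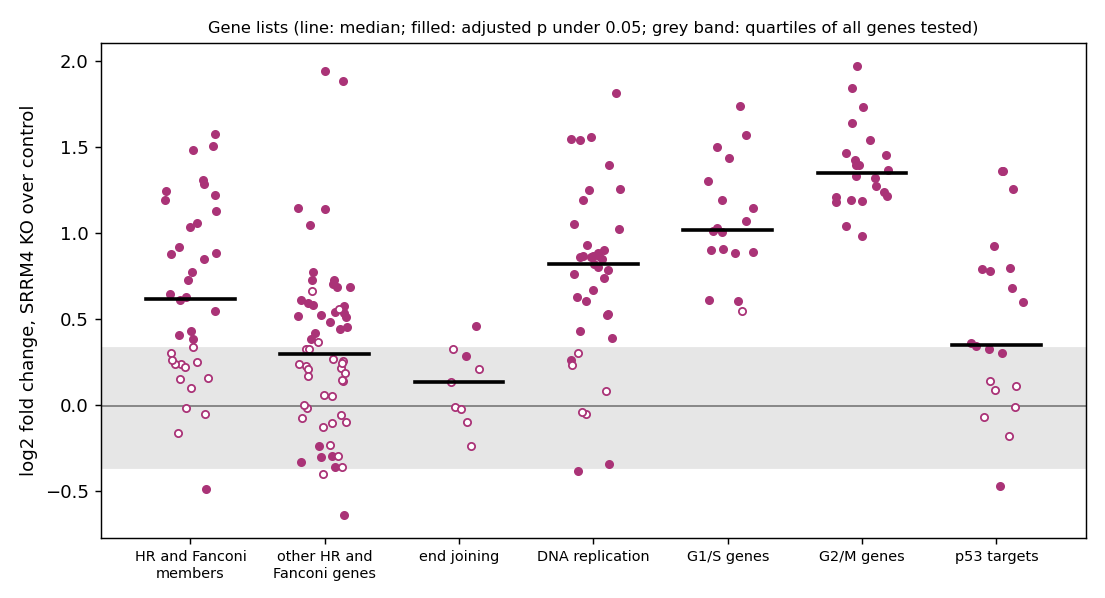
Log2 fold change (y axis, SRRM4 KO over control) of every tested gene in 7 lists, with a line at each list's median, filled points for an adjusted p under 0.05 by edgeR's quasi-likelihood test, and a grey band for the quartiles of all genes tested. The median of the 38 repair genes (0.62) lies between those of end joining (0.13) and G2/M (1.35).

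Because the KO line is a clone, each gene was set beside the tested genes within 5 Mb on its chromosome. BRIP1 and RAD51C, both on the long arm of chromosome 17, lay in the regions with the highest neighbour medians, 0.58 in each case (92 and 75 neighbours). Less its neighbours, BRIP1 kept a log2 difference of 0.99, and RAD51C the one of 0.07 given above. BRCA1, on the same chromosome, had neighbours at -0.01. FANCA, RBBP8 and XRCC2 lay in regions with medians of -0.47, -0.42 and -0.34. With the fit centred on the neighbours, BRCA2, PALB2, CHEK2, FANCC and RBBP8 passed as well, while RAD51C and MRE11 no longer did, and 27 genes rose in all. The share of all genes that rose in this centred fit was not computed. Whether copy number differs between the lines was not tested.

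**Figure D5:**
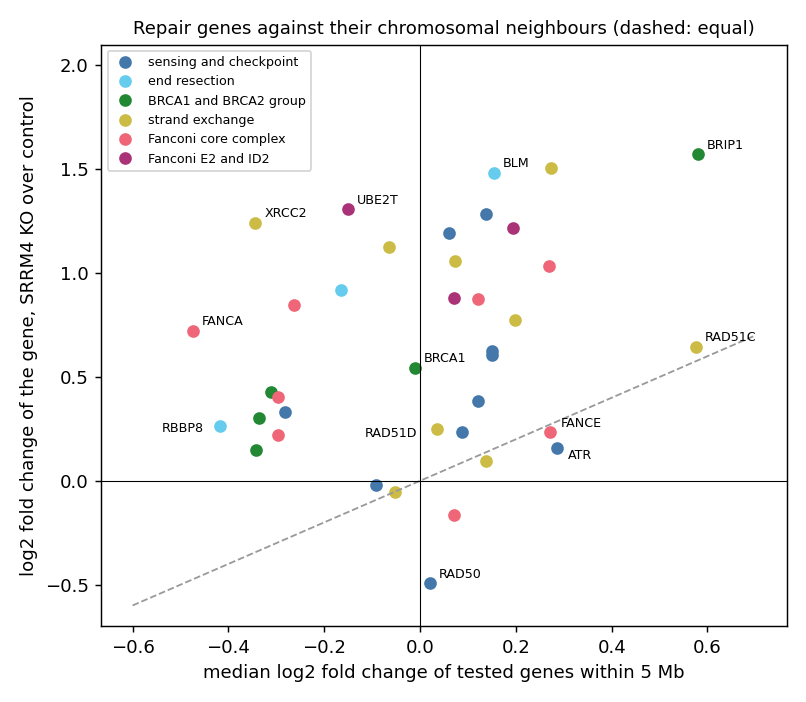
Log2 fold change of each repair gene (y axis) against the median log2 fold change of the tested genes within 5 Mb (x axis), coloured by role, with a dashed line where both are equal. RAD51C lies close to the dashed line at a neighbour median of 0.58, BRIP1 lies above it, and UBE2T, XRCC2 and FANCA rise beside neighbours with medians below 0.

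Control replicate 1 was the highest control library for 22 of the 38 genes, while it was the highest for 40.4% of all genes tested. Without it, 28 genes rose (BRCA2, RBBP8, NBN and ATR were added), RAD50 still fell and 10 genes lay beyond a log2 fold change of 1. The share of all genes that rose without this library was not computed. Exons shared with another gene made up at least 10% of the bases in 8 of the 38 genes. Among the other 30, a set chosen after the data were seen, 19 rose and none fell. Among the 28 with no exon-sharing gene at 10% or more of their count, 17 rose and RAD50 fell. Processed or partial copies of members such as CHEK2 and FANCD2 elsewhere in the genome had a mean of 0 counts.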

How the data were processed

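Non-stranded mRNA-seq of 3 control and 3 SRRM4 KO libraries was analysed from the raw counts per gene that the authors deposited, which were not normalized. The submitters' processing notes name HISAT2 2.0.5, featureCounts 1.5.0-p3 and DESeq2. The genome build and the handling of reads over several genes are not given in the sources used here. All 58735 gene IDs were found in GENCODE 29 (GRCh38), with identical coordinates for 58698, and the deposited gene length equalled the summed exon bases for all 38 genes. Groups were taken from the labels. Counts were tested with edgeR 4.0.16 in R 4.3.3 (TMM, filterByExpr, quasi-likelihood test, Benjamini-Hochberg adjustment over 15341 genes, threshold 0.05), and CPM used TMM-scaled library sizes. A gene was called past the test at an adjusted p under 0.05. The procedure was run on simulated counts with 200 changed genes, equally many up and down. In these data 20.7% of genes rose and 20.9% fell, and changes that widespread were not simulated. The value of 3 counts was given in CPM only as a scale, and no filter or test used it.

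Alternatives were DESeq2 1.42.0, other size factors, filters of none or 10 counts in every library, centring by chromosome or by neighbours within 5 Mb, the replicate number as a block, members that overlap no gene with 10% or more of their count, and each library left out. The restriction to members with under 10% of exon bases shared was chosen after seeing the data. The members and lists were chosen with earlier results of these data known. Values in each library are given for BRCA1, BRCA2, PALB2, every member beyond a log2 fold change of 1 and the largest rises and falls past the test. Of the other lists, at most 4 genes per direction with the largest changes are named. A few results on single genes are not reported here. CDKN1A, KLC1 and the partner pairs were chosen after their values were seen.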

Additional observations from a re-analysis of the deposited data

How the results depend on the processing

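The number of repair genes that rose was 24 and stayed within 1.5 times that under every alternative run: 23 to 24 with other size factors, filters or DESeq2, 24 with the replicate block, 28 and 27 with centring by chromosome and by neighbours, and 21 to 28 with 1 library left out. Same-numbered libraries did not deviate together (correlations of -0.05, 0.08 and -0.05), so the numbers were not taken as pairs, and the block changed no call among the 38. The count of 1 that fell, RAD50, became 0 with DESeq2, with chromosome centring and among genes with under 10% of exon bases shared (chosen after the data were seen), stayed 1 among the 28 genes with no overlapping gene at 10% or more of their count, and was 0 to 1 with 1 library left out. The median log2 fold change of 0.62 became 0.59 with upper-quartile normalization and 0.66 with neighbourhood centring, and ranged from 0.55 to 0.64 with 1 library left out, a spread larger than the SD of 0.024 between libraries. The number of other repair genes called, 31, ranged from 25 to 34. The share of all genes called under each alternative was not computed.

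RAD51B, RAD52, FANCE, ATM and ATR turned direction in some alternatives without passing the test. RAD51B went to -0.0016 with chromosome centring and -0.040 with neighbourhood centring, and ranged from -0.18 (without control replicate 2) to 0.46 with 1 library left out, being -0.07 without KO replicate 1. RAD52 ranged from -0.18 to 0.051 (without KO replicate 3). FANCE and ATR were at -0.038 and -0.13 with neighbourhood centring. ATM was at 0.070 with neighbourhood centring, and ranged from -0.095 to 0.12 (without control replicate 1) with 1 library left out. The cause of these changes was not tested. The mean level in control was lowest for RAD54B, XRCC2, RAD54L and RAD51B, and how far depth limits their calls was not tested.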
